A study of Homo sapiens with 8 samples.

Results

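SPNS2, the transporter that carries sphingosine-1-phosphate (S1P) out of the cell, was followed together with 8 other genes that make, break down or sense this lipid in DU145 prostate cancer cells. The 9 genes are SPHK1 and SPHK2 (synthesis), SPNS2 (export), SGPL1 and SGPP1 (breakdown) and the receptors S1PR1, S1PR2, S1PR3 and S1PR5, out of 23391 genes in the count table. They were chosen by name. SPNS2 itself was picked because its read counts had moved in opposite directions with Esrrb and with DY131 in these same libraries, so its values are given as a description and were not tested. The other 8 were chosen for their place in the pathway, with earlier results of these data known.

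S1P is a signalling lipid made when a sphingosine kinase adds a phosphate to sphingosine, which itself comes from ceramide. S1P that leaves the cell acts on G protein-coupled receptors of the S1PR family, which steer cell migration, adhesion and survival, while S1P that stays inside is either returned to sphingosine by a phosphatase or cleaved for good by a lyase. In epithelial tumours the pathway is best known through SPHK1, and SPNS2 is best known for supplying S1P to lymph.

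DU145 is an established human prostate cancer cell line. The cells had been stably transfected with an expression vector for the orphan nuclear receptor Esrrb (DU145-Esrrb) or with the empty pcDNA3.1 vector (DU145-pc3.1), selected with Zeocine and pooled, so that each arm is a pool of transfected cells and not a single clone. Each cell pool was sequenced without ligand, called untreated here and described in the series record as vehicle-treated, and after incubation with 3 μM DY131, a synthetic ligand of Esrrb, for a time that is not given in the sources used here. Both kinds of culture were confluent and kept in charcoal-stripped serum, which removes most steroid hormones. The 4 groups (DU145-pc3.1, DU145-Esrrb, DU145-pc3.1 + DY131 and DU145-Esrrb + DY131) had 2 biological replicates each. With so few, the tests set each difference against the spread between these 8 libraries. Whether the replicates of a group were separate transfections is not clear from the sources used here. If they were cultures of the same pool, an effect of Esrrb cannot be told apart from another difference between the pools.

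Between 7858743 and 11551690 reads were counted on genes per library, the lowest totals being those of DU145-Esrrb + DY131. ESRRB was at 0 to 3 counts in the 4 DU145-pc3.1 libraries and at 99 to 143 counts in the 4 DU145-Esrrb libraries, as labelled. All 5 epithelial markers examined (KRT8, KRT18, KRT19, EPCAM and CDH1) were expressed in every group, at 2521 to 3071 cpm in sum. None of 5 endothelial markers (PECAM1, CDH5, VWF, TEK, KDR) reached 1 cpm, and of the fibroblast and blood lists COL1A1 and, without ligand, CD14 did. Replicates differed by more than counting noise in every group, by a chi-square per degree of freedom of 1.29 to 2.60 in 3 groups and of 7.10 in DU145-pc3.1 + DY131. Levels are given as cpm, the counts relative to library sizes that were scaled with edgeR's TMM method. In such bulk samples a change in level cannot separate less RNA per cell from fewer cells that carry it.

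For the pathway genes that differed with DY131 in DU145-pc3.1, the cells with the empty vector, the RefSeq sequence before the transcription start is shown as a description. Binding of Esrrb or any other factor to these stretches was not tested. Windows of 300 bases, from 250 before to 50 after a start, were listed for 7 of the 9 genes, in 12 windows, and not for SPNS2 and SGPP1. The 250 bases before the start are printed for the window nearest to the transcript of the count table, on the gene's strand in GRCh38.p14. Capitals mark the GC box GGGCGG on either strand, a motif bound by Sp family factors.
SPHK1: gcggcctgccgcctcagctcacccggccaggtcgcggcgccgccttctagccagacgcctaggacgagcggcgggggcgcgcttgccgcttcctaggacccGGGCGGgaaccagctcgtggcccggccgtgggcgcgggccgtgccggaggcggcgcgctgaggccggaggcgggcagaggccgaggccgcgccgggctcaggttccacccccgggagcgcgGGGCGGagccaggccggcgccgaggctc
S1PR3: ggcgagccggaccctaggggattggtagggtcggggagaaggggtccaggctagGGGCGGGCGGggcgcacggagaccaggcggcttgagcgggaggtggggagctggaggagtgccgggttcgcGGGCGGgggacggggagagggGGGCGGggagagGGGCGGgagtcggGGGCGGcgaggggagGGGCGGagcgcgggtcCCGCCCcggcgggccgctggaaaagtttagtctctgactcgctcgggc
S1PR2: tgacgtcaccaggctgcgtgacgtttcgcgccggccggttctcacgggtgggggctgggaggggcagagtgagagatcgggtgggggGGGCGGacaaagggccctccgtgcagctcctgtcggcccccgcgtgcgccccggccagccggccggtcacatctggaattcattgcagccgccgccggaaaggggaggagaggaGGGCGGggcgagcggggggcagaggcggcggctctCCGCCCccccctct
S1PR5: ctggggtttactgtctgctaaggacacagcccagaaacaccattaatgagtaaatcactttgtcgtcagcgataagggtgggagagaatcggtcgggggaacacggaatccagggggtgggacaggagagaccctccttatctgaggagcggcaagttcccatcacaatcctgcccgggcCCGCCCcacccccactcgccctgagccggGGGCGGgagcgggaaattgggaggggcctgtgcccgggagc
These stretches lie at chr17:76384359-76384608 (plus strand, 2 GC boxes), chr9:88991218-88991467 (plus strand, 8 GC boxes, of which the leftmost pair overlap), chr19:10231332-10231581 (minus strand, 3 GC boxes) and chr19:10517966-10518215 (minus strand, 2 GC boxes). The GC box was in 8 of the 12 windows of the pathway genes and in 45.0% of 35116 promoter windows of the same length. The response element that estrogen-related receptors are known to bind, searched on both strands as TCAAGGTCA, as its core AAGGTCA and as the shorter AGGTCA that the longer forms contain, was in none of the 12 windows. It was in 0.353%, 3.92% and 13.8% of all promoter windows, respectively. Of the other motifs searched, CCAAT was in 4 of the 12 windows, against 34.6% of all, and CACGTG in none, against 7.26%.

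Per kilobase of transcript, the breakdown genes stood highest in untreated DU145-pc3.1 cells and the receptors lowest. The mean level was 29.7 cpm per kb for SGPL1, 20.9 for SGPP1, 4.99 for SPNS2, 4.497 for SPHK2, 4.49 for SPHK1, 3.03 for S1PR5, 1.86 for S1PR3, 1.67 for S1PR2 and 0.0328 for S1PR1. The kinases and the exporter were thus at nearly the same level per length, SPHK2 and SPHK1 differing by less than the spread between their replicates. The plot of the levels by library shows that this order was not kept under Esrrb and DY131.

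**Figure D1:**
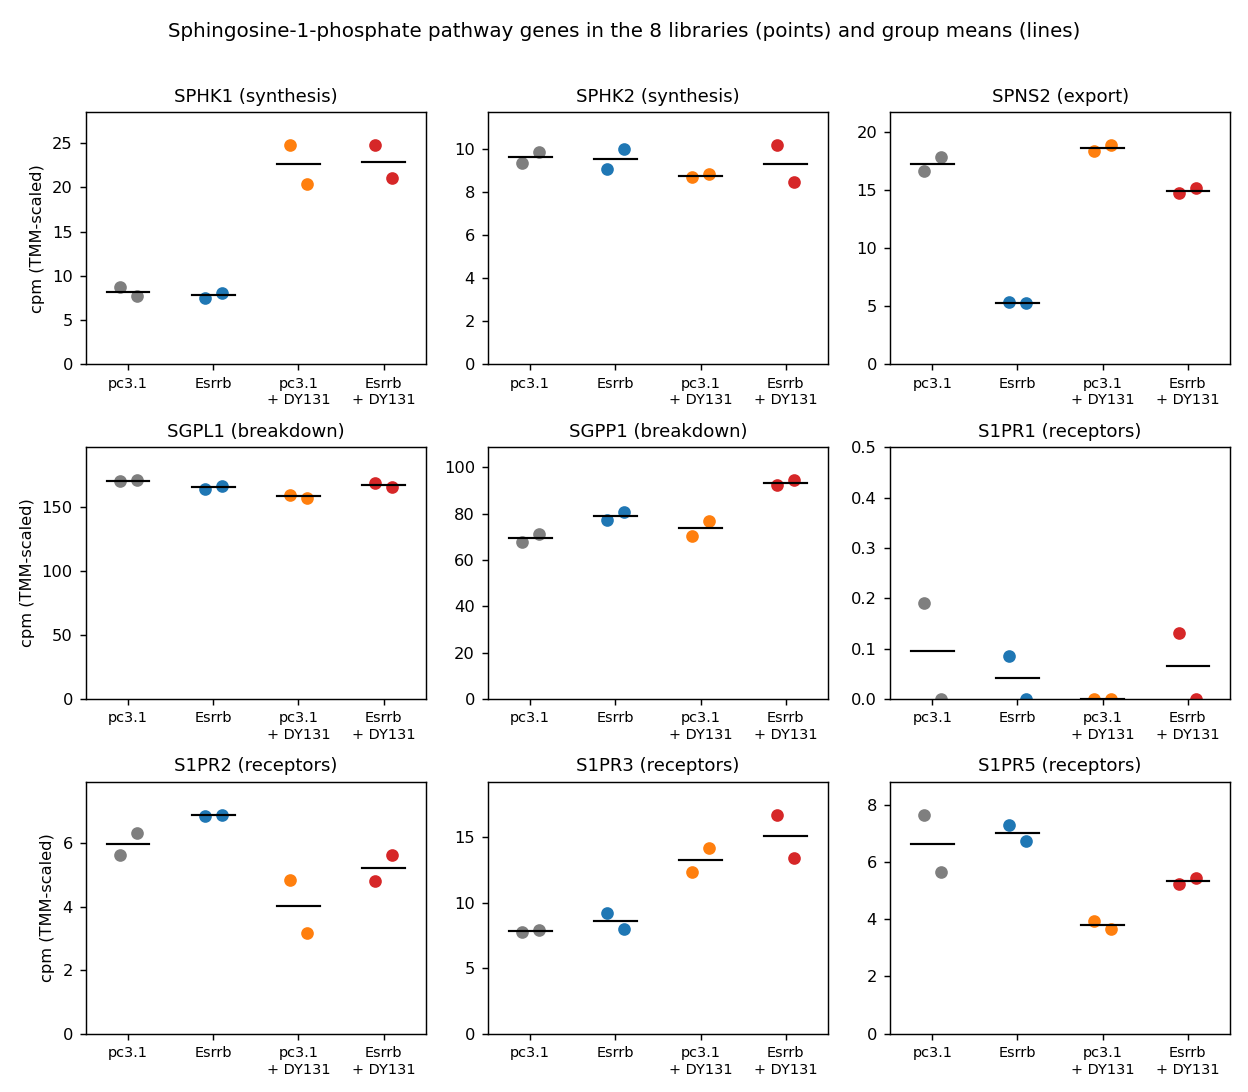
Level of each of the 9 pathway genes in cpm on TMM-scaled library sizes (y axis, linear, from 0) in the 4 groups (x axis). Points are the 2 libraries of a group and lines their mean. SPNS2 was low in untreated DU145-Esrrb alone (5.24 and 5.35 cpm), whereas SPHK1 stood at 20.4 to 24.8 cpm in all 4 DY131-treated libraries and at 7.47 to 8.68 cpm in the 4 untreated ones.

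The export gene SPNS2 (NM_001124758, chr17:4498838-4539035 in GRCh38, plus strand, 13 exons in the transcript matched) was low in a single group. It was at 16.6 and 17.8 cpm in DU145-pc3.1, at 5.35 and 5.24 cpm in DU145-Esrrb, at 18.3 and 18.8 cpm in DU145-pc3.1 + DY131 and at 14.7 and 15.15 cpm in DU145-Esrrb + DY131. The counts behind these levels were 57 to 202 per library, lowest in untreated DU145-Esrrb with 63 and 57.

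Both untreated DU145-Esrrb libraries were thus far under the other 6, whose levels lay within a narrow range. In log2 fold change, SPNS2 was at -1.70 ± 0.14 (SE) in DU145-Esrrb against DU145-pc3.1 without ligand, a level 69.2% lower. With DY131 it was at 1.49 ± 0.15 in DU145-Esrrb cells, 2.82-fold higher than without, and at 0.11 ± 0.12 in DU145-pc3.1 cells.

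The fall with Esrrb and the rise with DY131 share the 2 untreated DU145-Esrrb libraries, so each rests in part on the same low values. With DY131 in both pools, DU145-Esrrb remained at -0.31 ± 0.13 against DU145-pc3.1. The difference between the DY131 responses of the 2 pools was 1.38 ± 0.20 on the log2 scale. In the order of the group means, DU145-Esrrb (5.295 cpm) was followed by DU145-Esrrb + DY131 (14.9), DU145-pc3.1 (17.2) and DU145-pc3.1 + DY131 (18.6), and the difference between the last 2 was smaller than its standard error.

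SPNS2 shares 3.38% of its exon bases with MYBBP1A on the opposite strand, and none of its 50-base windows was found in another gene's transcript. Its values moved little with the processing, from -1.74 to -1.65 for Esrrb without ligand and from 1.43 to 1.54 for DY131 in DU145-Esrrb over the alternatives run. Since SPNS2 was picked for these differences in the same libraries, this steadiness is a description.

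The sphingosine kinases, which make S1P, differed from each other. SPHK1 (NM_001142601, chr17:76376584-76387860), the kinase found mostly in the cytosol and at the plasma membrane, was higher with DY131 whether or not Esrrb was expressed. It was at 8.68 and 7.66 cpm in DU145-pc3.1 and at 7.47 and 8.09 cpm in DU145-Esrrb, and with DY131 at 24.8 and 20.4 cpm in DU145-pc3.1 and at 24.8 and 21.02 cpm in DU145-Esrrb.

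Every treated library stood above every untreated one. SPHK1 rose 2.77-fold with DY131 in DU145-pc3.1 (log2 fold change 1.47 ± 0.14 SE, adjusted p = 8.92e-08 by the quasi-likelihood F test of edgeR, adjusted over 13856 genes after Benjamini and Hochberg). It rose 2.93-fold in DU145-Esrrb (1.55 ± 0.15, adjusted p = 1.30e-08 by the same edgeR test). These comparisons share no library, but both come from 1 model of all 8 libraries with a common estimate of spread.

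Esrrb itself was not seen to move SPHK1, at a log2 fold change of -0.07 ± 0.17 without ligand (adjusted p = 0.896, edgeR) and 0.01 ± 0.13 with it (adjusted p = 0.947, edgeR). The DY131 responses of the 2 pools differed by 0.08 ± 0.21 (95% interval -0.36 to 0.52, adjusted p = 0.797, edgeR), so a difference of up to about this size in either direction remains possible. The rise of SPHK1 passed the test in both pools under all alternatives run, with log2 fold changes of 1.33 to 1.60 in DU145-pc3.1 and of 1.43 to 1.67 in DU145-Esrrb.

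SPHK2 (NM_001204158, chr19:48619291-48630717), the kinase known from the nucleus and internal membranes, was at 9.35 and 9.86 cpm in DU145-pc3.1, at 9.08 and 10.0 cpm in DU145-Esrrb, at 8.69 and 8.83 cpm in DU145-pc3.1 + DY131 and at 10.2 and 8.48 cpm in DU145-Esrrb + DY131. All 8 libraries lay close together, and none of the comparisons passed. Its log2 fold change with DY131 was -0.13 (95% interval -0.46 to 0.19) in DU145-pc3.1 and -0.04 (-0.38 to 0.30) in DU145-Esrrb. SPHK2 shares 11.3% of its exon bases with AC022154.1, 11% with DBP and 4.09% with RPL18, all on the opposite strand, and the strand setting of the counting is not given in the sources used here.

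Per kilobase, SPHK1 and SPHK2 were balanced without ligand, at a ratio of 0.911 to 1.09 in the 4 untreated libraries. In the 4 DY131-treated libraries the ratio was 2.72 to 3.34. SPHK1 became the more abundant kinase transcript in each of these.

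**Figure D2:**
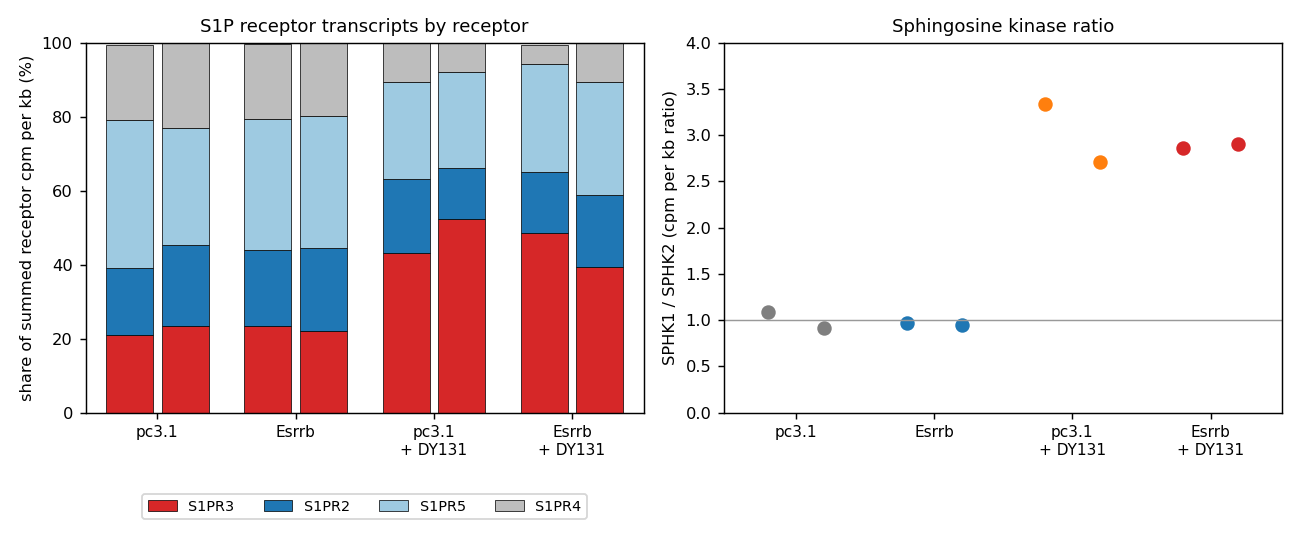
Left, share of the summed S1P receptor level (cpm per kb, y axis in %) held by each receptor in the 8 libraries, 2 bars per group, with S1PR1 too small to see; right, ratio of SPHK1 to SPHK2 in cpm per kb, 1 point per library, with a line at 1. S1PR3 held 21.1 to 23.5% without ligand and 39.4 to 52.4% with DY131, and the kinase ratio rose from 0.911 to 1.09 to between 2.72 and 3.34.

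Of the breakdown genes, SGPL1 (NM_003901, chr10:70815961-70881173), the lyase that cleaves S1P irreversibly, was the most steady. It was at 171 cpm in both DU145-pc3.1 libraries, at 164.5 and 166.6 cpm in DU145-Esrrb, at 159.7 and 157.5 cpm in DU145-pc3.1 + DY131 and at 169 and 166 cpm in DU145-Esrrb + DY131. None of its comparisons passed the test. Its log2 fold change was -0.11 with DY131 in DU145-pc3.1 (95% interval -0.23 to 0.01), and the DY131 responses of the 2 pools differed by 0.12 (-0.05 to 0.29).

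SGPP1 (NM_030791, chr14:63684214-63728039), the phosphatase of the endoplasmic reticulum that returns S1P to sphingosine, was highest where Esrrb and DY131 met. It was at 67.7 and 71.1 cpm in DU145-pc3.1, at 77.1 and 80.6 cpm in DU145-Esrrb, at 70.5 and 76.97 cpm in DU145-pc3.1 + DY131 and at 92.3 and 94.5 cpm in DU145-Esrrb + DY131. The last group stood above the other 3, whose ranges lay close together.

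SGPP1 rose with DY131 in DU145-Esrrb by 0.25 ± 0.07 on the log2 scale (SE, adjusted p = 0.00513, edgeR) and was higher in DU145-Esrrb than in DU145-pc3.1 under DY131 by 0.34 ± 0.07 (adjusted p = 0.000424, edgeR). The first call was lost without DU145-Esrrb replicate 1 (adjusted p = 0.0665, edgeR) and without the second DU145-Esrrb + DY131 column (adjusted p = 0.0567, edgeR). The DY131 responses of the 2 pools did not differ by the test (0.16, 95% interval -0.05 to 0.37). Without ligand, SGPP1 was 13.6% higher in DU145-Esrrb (adjusted p = 0.166, edgeR), a difference that passed when either DU145-pc3.1 + DY131 library was left out (adjusted p = 0.0410 and 0.0445, edgeR).

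In the DU145-Esrrb + DY131 libraries the change of a gene went with its exon structure, which bears on SGPP1 and the receptors. The share of 50-base windows of a transcript that span an exon junction correlated with the log2 fold change across 13606 tested genes at a Spearman's rho of -0.375 for DY131 in DU145-Esrrb and of -0.4765 for Esrrb under DY131, but of -0.038 and 0.011 for the comparisons without these libraries, Esrrb without ligand and DY131 in DU145-pc3.1. Genes are not independent replicates and share the libraries, so rho is a description. The median log2 fold change with DY131 in DU145-Esrrb was 0.27 in the tenth of genes with the fewest junctions (a share of up to 2.84%) and -0.56 in the tenth with the most.

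The share was 1.18 to 2.29% for the 4 receptors, 3.00% for SGPP1, 12.0% for SGPL1, 13.8% for SPHK1, 14.1% for SPHK2 and 17.2% for SPNS2, against a median of 14.4% over the tested genes. When each library was corrected for this share, an alternative chosen after seeing the data, SPNS2 was at 1.54 ± 0.15 with DY131 in DU145-Esrrb and SPHK1 at 1.53 ± 0.15 (adjusted p = 1.88e-08, edgeR), close to the uncorrected values. SGPP1 went to -0.004 ± 0.07 (adjusted p = 0.964, edgeR) with DY131 in DU145-Esrrb and to 0.06 ± 0.07 (adjusted p = 0.568, edgeR) for Esrrb under DY131. Both SGPP1 calls were thus lost with the correction.

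**Figure D3:**
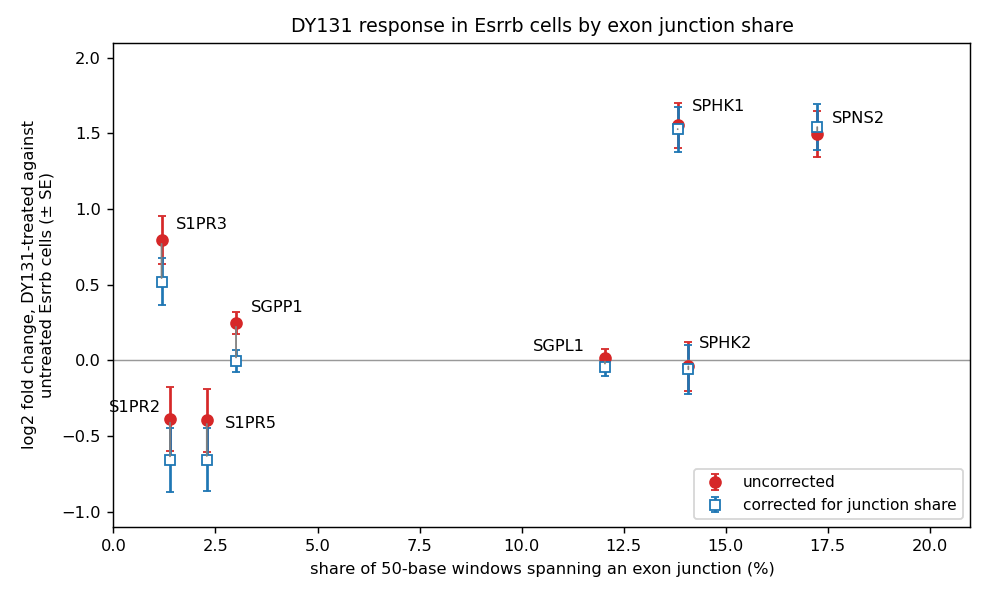
Log2 fold change with DY131 in DU145-Esrrb cells (y axis, bars are SE) against the share of a transcript's 50-base windows that span an exon junction (x axis, %) for SPNS2 and the 7 other pathway genes that passed the filter, uncorrected (red circles) and corrected for that share (blue squares). SPNS2, SPHK1, SPHK2 and SGPL1, with shares of 12.0 to 17.2%, hardly moved, whereas SGPP1 and the receptors, with shares of at most 3.00%, moved down.

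The receptors were all at low levels and moved in different directions. S1PR1 (NM_001400, chr1:101236865-101243713), the receptor best known for guiding lymphocytes and blood vessels, had 2 and 0 counts in DU145-pc3.1, 1 and 0 in DU145-Esrrb, 0 in both DU145-pc3.1 + DY131 libraries and 1 and 0 in DU145-Esrrb + DY131. It failed the filter of 1 cpm in 2 libraries and was not tested, and a count of 0 in these libraries allows up to 3 counts, or 0.267 to 0.331 cpm, from counting error alone.

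S1PR3 (NM_005226, chr9:88990863-89005010), which couples to several classes of G protein, was at 7.73 and 7.92 cpm in DU145-pc3.1, at 9.25 and 8.001 cpm in DU145-Esrrb, at 12.3 and 14.2 cpm in DU145-pc3.1 + DY131 and at 16.7 and 13.45 cpm in DU145-Esrrb + DY131. All 4 treated libraries lay above all 4 untreated ones. S1PR3 rose 1.69-fold with DY131 in DU145-pc3.1 (log2 fold change 0.76 ± 0.16 SE, adjusted p = 0.000678, edgeR) and 1.73-fold in DU145-Esrrb (0.79 ± 0.16, adjusted p = 0.000182, edgeR). The latter was 0.52 ± 0.16 with the junction correction (adjusted p = 0.00796, edgeR), and both calls kept an adjusted p under 0.05 under the alternatives run, with adjusted p of at most 0.0114 and 0.0110.

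For S1PR3 the responses of the 2 pools differed by 0.04 on the log2 scale (95% interval -0.43 to 0.50). Esrrb was not seen to move it without ligand (0.14, 95% interval -0.21 to 0.49) or with it (0.18, -0.13 to 0.49). Over the alternatives run, the difference between the responses lay between -0.28 and 0.18. The difference with Esrrb under DY131 lay between -0.16 and 0.32, so the sign of neither was kept.

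S1PR5 (NM_001166215, chr19:10512742-10517931), known from natural killer cells and oligodendrocytes, went the other way. It was at 7.63 and 5.635 cpm in DU145-pc3.1, at 7.30 and 6.71 cpm in DU145-Esrrb, at 3.925 and 3.67 cpm in DU145-pc3.1 + DY131 and at 5.215 and 5.43 cpm in DU145-Esrrb + DY131. Treated libraries were lower than untreated ones within each pool, although DU145-Esrrb + DY131 lay just under the lower DU145-pc3.1 library. With 2 libraries on each side this order is a description, and in DU145-Esrrb the difference did not pass the test.

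S1PR5 fell by 42.4% with DY131 in DU145-pc3.1 (log2 fold change -0.80 ± 0.21 SE, adjusted p = 0.00525, edgeR). Without DU145-pc3.1 replicate 1 it was at -0.56 (adjusted p = 0.113, edgeR), and DESeq2 gave an adjusted p of 0.0627. In DU145-Esrrb it was at -0.40 ± 0.21 (adjusted p = 0.104, edgeR), and with the junction correction at -0.66 ± 0.21 (adjusted p = 0.0101, edgeR). The responses of the 2 pools differed by 0.40 (95% interval -0.22 to 1.02, adjusted p = 0.322, edgeR).

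S1PR2 (NM_004230, chr19:10221433-10231331), the receptor best known for restraining migration, was at 5.63 and 6.34 cpm in DU145-pc3.1, at 6.88 and 6.90 cpm in DU145-Esrrb, at 4.86 and 3.17 cpm in DU145-pc3.1 + DY131 and at 4.82 and 5.65 cpm in DU145-Esrrb + DY131. The treated libraries were lower than the untreated ones of their pool, with a wide gap between the DU145-pc3.1 + DY131 replicates. This order too is a description of 2 libraries on each side. Its fall by 32.6% with DY131 in DU145-pc3.1 (-0.57 ± 0.22 SE, adjusted p = 0.0464, edgeR) was at the threshold: the call held when 1 of the 8 libraries was left out, DU145-pc3.1 + DY131 replicate 1, and was lost when any of the other 7 was, and the value was -0.30 without DU145-pc3.1 + DY131 replicate 2.

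In DU145-Esrrb, S1PR2 was at -0.39 ± 0.21 with DY131 (adjusted p = 0.125, edgeR), and at -0.66 ± 0.21 with the junction correction (adjusted p = 0.0127, edgeR). S1PR2 shares 3.88% of its 50-base windows with transcripts of other genes and 2.28% of its exon bases with DNMT1. Without DU145-pc3.1 + DY131 replicate 1, S1PR2 was higher in DU145-Esrrb than in DU145-pc3.1 under DY131 by 0.71 (adjusted p = 0.0352, edgeR), a comparison that otherwise gave 0.38 (adjusted p = 0.192, edgeR).

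S1PR4, the receptor of the family outside the list and known from blood cells, was at 2.77 and 2.91 cpm in DU145-pc3.1, at 2.97 and 2.67 cpm in DU145-Esrrb, at 1.12 and 0.794 cpm in DU145-pc3.1 + DY131 and at 0.652 and 1.36 cpm in DU145-Esrrb + DY131. These are 5 to 35 counts, and the treated libraries were the lower ones in both pools. S1PR4 fell with DY131 by 1.55 on the log2 scale in DU145-pc3.1 (SE 0.37, adjusted p = 0.00197, edgeR) and by 1.45 in DU145-Esrrb (SE 0.38, adjusted p = 0.00261, edgeR), the latter call being lost without the first DU145-Esrrb + DY131 column (-1.05, adjusted p = 0.0553, edgeR).

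Per kilobase, S1PR3 made up 21.1 to 23.5% of the summed level of the 5 receptors in the 4 untreated libraries and 39.4 to 52.4% in the 4 treated ones. S1PR5 went from 31.8 to 39.9% without ligand to 26.0 to 30.5% with it. The sum over the receptors was 8.08 to 9.38 cpm per kb without ligand, 6.44 and 6.80 in DU145-pc3.1 + DY131 and 8.12 and 8.16 in DU145-Esrrb + DY131. S1PR5 held the largest share in each untreated library and S1PR3 in each treated one.

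Across the comparisons, members of the pathway passed the test with DY131 in both pools, and none passed for Esrrb without ligand. For Esrrb without ligand, 0 of the 7 tested members other than SPNS2 passed edgeR's test, in a comparison that called 4.81% of all tested genes, and 0.606% with a log2 fold change of at least 1 in size as well. That background was itself unsteady: edgeR called 667 of all tested genes, 208 to 242 when any of the 4 untreated libraries was left out and 1538 or 1556 without DU145-pc3.1 + DY131 replicate 1 or 2, and DESeq2 called 317. For the members, DESeq2 and edgeR's exact test also called 0, and 1 of the 7, SGPP1, had an unadjusted p under 0.05. With DY131 in DU145-pc3.1, 2 rose (SPHK1, S1PR3) and 2 fell (S1PR2, S1PR5), or 57.1%, where 37.9% of all genes were called, and SPHK1 alone of the 7 passed the fold threshold, where 4.19% of all genes did.

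With DY131 in DU145-Esrrb, 3 rose (SPHK1, S1PR3, SGPP1) and 0 fell, or 42.9%, where 58.9% of all genes were called. With the junction correction 2 rose (SPHK1, S1PR3) and 2 fell (S1PR2, S1PR5), where 7461 of the 13856 tested genes were called. SPHK1 alone, without that correction, again passed the fold threshold, where 12.0% of all genes did. For Esrrb under DY131, SGPP1 was higher and no other passed, or 14.3%, where 50.7% of all genes were called, and none passed the fold threshold, where 8.18% did. For the difference between the DY131 responses of the pools, 0 of 7 passed, where 34.6% of all genes were called, or 6.28% with the fold threshold. DESeq2 also called 0 of these differences, and 0 had an unadjusted p under 0.05. With 7 members a single gene moves such a share by 14.3 percentage points, so the shares are given as a description. The median log2 fold change of the 7 lay between -0.11 and 0.18 in the 5 comparisons, and that of all tested genes between -0.0045 and 0.0082.

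**Figure D4:**
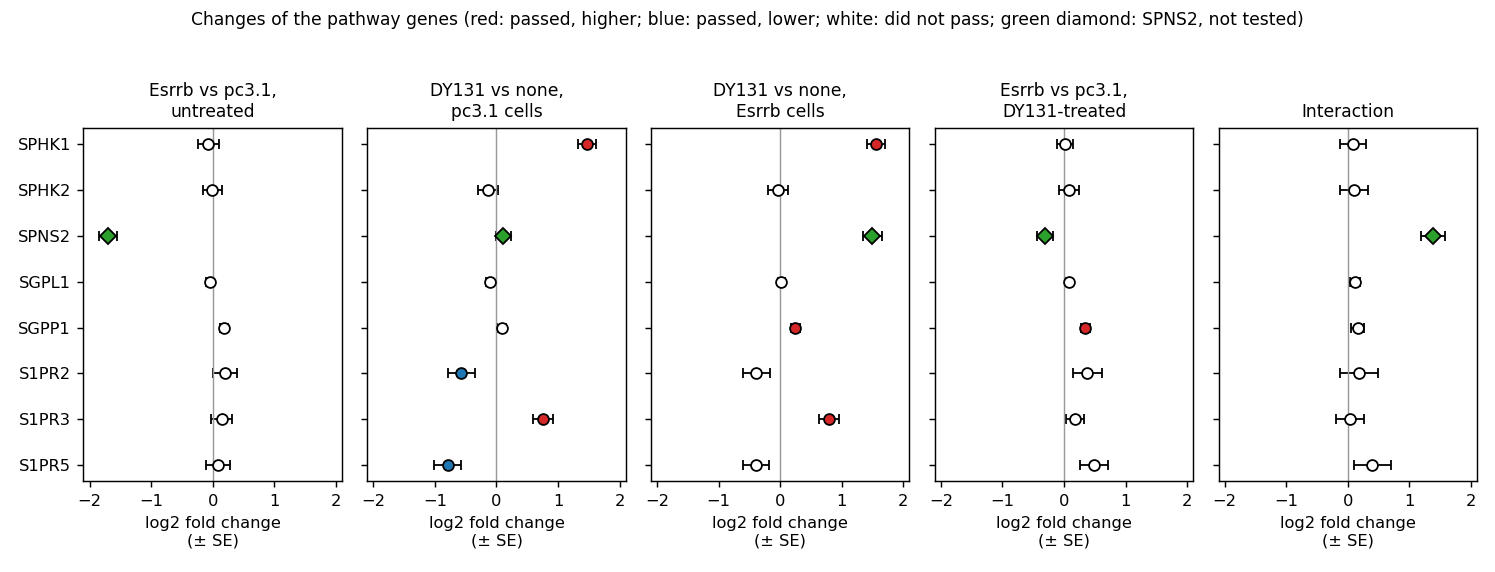
Log2 fold change (x axis, bars are SE) of 8 pathway genes in the 4 comparisons and in the interaction, the DY131 response of DU145-Esrrb minus that of DU145-pc3.1. Red and blue circles passed edgeR's quasi-likelihood test at an adjusted p under 0.05, white circles did not, and SPNS2 (green diamonds) was not tested; SPHK1 and S1PR3 stood to the right in both DY131 panels and SPNS2 in that of Esrrb cells.

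Of 52 further genes of sphingolipid metabolism and S1P signalling, 44 passed the filter. Without ligand, 1 of them passed, or 2.27%, where 4.81% of all genes were called. It was CERS4, a ceramide synthase, at 10.7 and 10.48 cpm in DU145-pc3.1 and at 16.2 and 15.1 cpm in DU145-Esrrb (log2 fold change 0.57 ± 0.14 SE, adjusted p = 0.0225, edgeR). That call was lost without any of these 4 libraries (adjusted p = 0.112 to 0.252, edgeR) and with DESeq2 (adjusted p = 0.331).

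With DY131, 8 rose and 11 fell in DU145-pc3.1, or 43.2%, where 37.9% of all genes were called, and 15 rose and 11 fell in DU145-Esrrb, or 59.1%, near the 58.9% of all genes. The largest rises in DU145-pc3.1 were small: DEGS1, the desaturase that completes ceramide, rose by 0.37 ± 0.07, CERS6 by 0.27 ± 0.07 and the ceramidase ACER3 by 0.27 ± 0.09. The call of CERS6 was lost without DU145-pc3.1 replicate 2, and that of ACER3 with DESeq2 and without either DU145-pc3.1 library or DU145-pc3.1 + DY131 replicate 2. The largest falls there were those of S1PR4, of DEGS2, a desaturase at 3 to 14 counts in these 4 libraries (-1.49 ± 0.55, adjusted p = 0.0359, edgeR, lost without either DU145-pc3.1 library or DU145-pc3.1 + DY131 replicate 2), and of CERS4 (-0.64 ± 0.17). In the plot of the wider list, most changes are smaller than the rise of SPHK1.

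In DU145-Esrrb, CERS4 went from 16.2 and 15.1 cpm to 3.52 and 5.09 cpm with DY131, a log2 fold change of -1.84 ± 0.18 (adjusted p = 1.69e-08, edgeR). CERS1, which shares all its windows with GDF1 so that its change is uncertain, was at -1.51 ± 0.29 and S1PR4 at -1.45 ± 0.38. The largest rises were those of the sphingomyelinase SMPD3 (1.30 ± 0.39, lost without DU145-Esrrb replicate 2 or either DU145-Esrrb + DY131 column, adjusted p of up to 0.1035, edgeR), of DEGS1 (0.69 ± 0.07) and of GNA13, a G protein subunit that transmits signals of S1PR2 and S1PR3 (0.51 ± 0.06). With the junction correction DEGS1 was at 0.47, GNA13 at 0.26 and CERS4 at -1.48, and all 3 passed.

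Of the 7 G protein subunits listed, 1 rose and 1 fell with DY131 in DU145-pc3.1 and 5 rose and 1 fell in DU145-Esrrb, where 37.9% and 58.9% of all genes were called. Under DY131, 5 of the 7 were higher in DU145-Esrrb than in DU145-pc3.1, in a comparison that called 50.7% of all genes, among them GNA12 (0.44 ± 0.06) and GNA13 (0.31 ± 0.06), which with the junction correction were at 0.17 (adjusted p = 0.0231, edgeR) and 0.02 (adjusted p = 0.815, edgeR). ORMDL3, an inhibitor of the first step of sphingolipid synthesis, was the gene of the wider list with the largest rise in that comparison (0.59 ± 0.09), and 12 of the 44 were higher and 8 lower, or 45.5%, against the same 50.7%. The lowest were ABCG2, a transporter of many lipids and drugs (-1.59 ± 0.36), SPNS1 (-0.71 ± 0.14) and the sphingomyelinase SMPD2 (-0.70 ± 0.23, lost with DESeq2, with the junction correction and without the second DU145-Esrrb + DY131 column).

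**Figure D5:**
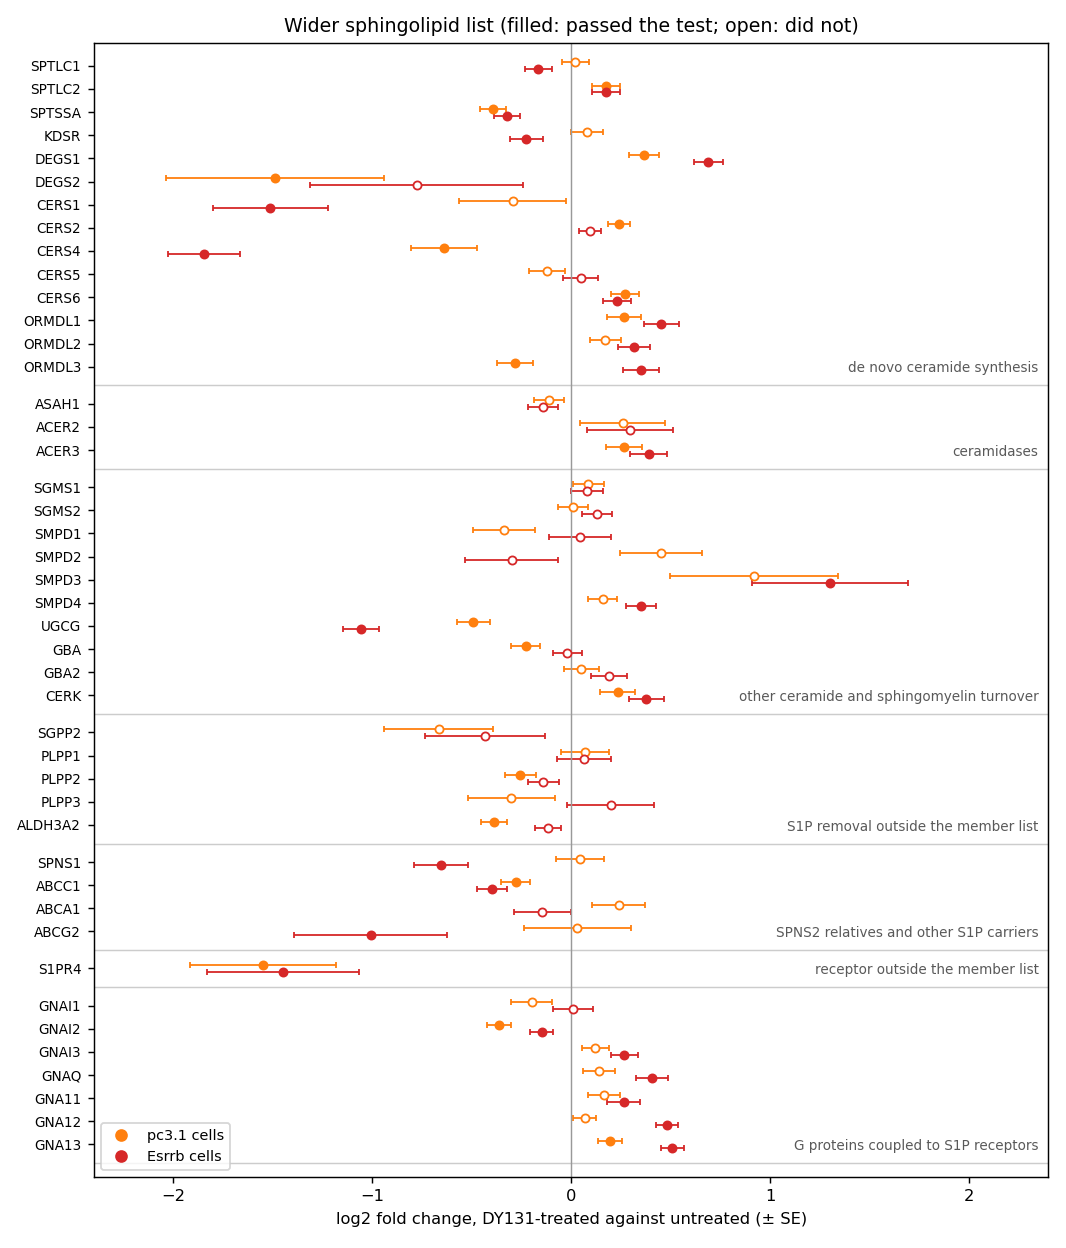
Log2 fold change with DY131 (x axis, bars are SE) of the 44 tested genes of the wider sphingolipid list, by role (y axis), in DU145-pc3.1 (orange) and DU145-Esrrb cells (red). Filled points passed edgeR's quasi-likelihood test at an adjusted p under 0.05. S1PR4 and CERS4 lay to the left in both pools, SPNS1 and ABCG2 in DU145-Esrrb cells.

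The relatives of SPNS2 had other patterns. SPNS1, a lysosomal transporter, was at 17.1 and 19.3 cpm in DU145-pc3.1, at 17.8 and 18.2 cpm in DU145-Esrrb, at 19.35 and 18.15 cpm in DU145-pc3.1 + DY131 and at 10.6 and 12.2 cpm in DU145-Esrrb + DY131. Where SPNS2 was low, SPNS1 was not, and SPNS1 was low where SPNS2 was back near the control. It fell with DY131 in DU145-Esrrb by 0.66 on the log2 scale (SE 0.13, adjusted p = 0.000261, edgeR), and by 0.45 with the junction correction, but 88.2% of its windows are also found in AC109460.3, so its counts are uncertain. SPNS3 had 0 to 4 counts per library and was not tested. SGPP2, the other S1P phosphatase, was at 4.39 and 4.49 cpm in DU145-pc3.1, at 3.735 and 3.31 cpm in DU145-Esrrb, at 2.43 and 3.17 cpm in DU145-pc3.1 + DY131 and at 3.52 and 1.81 cpm in DU145-Esrrb + DY131, and passed in none of the comparisons of the main fit. With DY131 in DU145-pc3.1 its log2 fold change was -0.87 to -0.47 over the alternatives, and it stayed uncalled in 15 of 18. With DY131 in DU145-Esrrb it stayed uncalled in 15 of 16.

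Among 13380 tested genes outside the pathway with a mean of at least 1 cpm, the genes whose log2 cpm followed SPNS2 most closely over the 8 libraries were DNTTIP1 (Pearson's r = 0.978), CCNJL (0.970), HLA-B (0.968), URM1 (0.965) and PCDHB14 (0.962). The 8 points share 4 groups and the same library sizes, so r is a description of the pattern and says nothing on its size. HLA-B, a classical histocompatibility antigen, went from 18.3 and 17.8 cpm in DU145-pc3.1 to 9.42 and 11.2 cpm in DU145-Esrrb and stood at 17.5 and 20.6 cpm in DU145-pc3.1 + DY131 and at 17.6 and 16.8 cpm in DU145-Esrrb + DY131. HLA-B and PCDHB14 belong to families of near-identical genes, so their counts are uncertain. DNTTIP1, a partner of histone deacetylases, was at a mean of 32.3, 22.3, 33.2 and 28.96 cpm in DU145-pc3.1, DU145-Esrrb, DU145-pc3.1 + DY131 and DU145-Esrrb + DY131. Within the pathway, r with SPNS2 was 0.563 for SPHK1, 0.401 for S1PR3, -0.606 for S1PR5 and -0.642 for S1PR2, and between -0.279 and -0.093 for SPHK2, SGPP1 and SGPL1.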

How the data were processed

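Polyadenylated RNA of the 8 DU145 cultures was converted to libraries with a stranded kit and sequenced as 50-base single-end reads in 1 lane. Per the study's methods, reads were trimmed with the FASTX-Toolkit, mapped to hg18 with TopHat2 and counted per gene with the in-house program MULTICOM-MAP, and the authors deposited the raw counts, whole numbers without normalization, for 23391 genes. How strand and reads with several positions were handled in counting is not given in the sources used here. Gene positions come from GENCODE 29 on GRCh38, not hg18, and promoter sequences from RefSeq (GRCh38.p14).

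Columns were assigned through the descriptions in the series record. Both columns of DU145-Esrrb + DY131 have 1 heading in common and therefore no replicate number. Genes that reached 1 cpm in 2 or more libraries entered the tests (13856 genes), and the 4 groups entered 1 model in edgeR 4.0.16 (R 4.3.3), with TMM scaling, the robust quasi-likelihood F test and p-values adjusted over all tested genes after Benjamini and Hochberg. Calls required an adjusted p below 0.05. A stricter threshold also required a log2 fold change of 1 or more in either direction. This differs from the study, which used edgeR's exact test. The study reported that DY131 without Esrrb altered no gene. Here 5257 genes were called for DY131 in DU145-pc3.1, 580 of them past the fold threshold. The exact test called 5283 genes there without the fold threshold. The study required that threshold too, so this count is not like for like, and the exact test's count past it is not given here. The study's list for DY131 in Esrrb-expressing cells includes SPHK1, which here rose in both pools. The cause of this difference from the study was not tested. Standard errors were taken from the F statistic. The comparisons were Esrrb against control without and with DY131, DY131 in each cell pool, and their interaction.

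Transcript length and the share of 50-base windows over exon junctions were computed for 22018 genes matched by RefSeq identifier and 721 by symbol, with 652 unmatched. Windows shared with other genes were computed for the pathway members and the wider list alone. Of the tested genes, 98.2% had a junction share. The alternatives were edgeR's exact test, DESeq2 1.42.0, other scaling, other filters, only the 4 libraries compared, the fold threshold, each library left out, the replicate number as a block and, added after seeing the data, a lowess correction of each library for the junction share. The fit was tested on simulated counts with known changes, and the junction correction on simulated counts with a junction bias and no true change. Whether the correction keeps true changes was not tested. Figures were drawn with matplotlib 3.10.9 in Python 3.11.15.

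The pathway members and the wider list were chosen with earlier results of these data known. Named were all members, SPNS1, SPNS3, S1PR4, SGPP2, up to 3 called genes of the wider list with the largest rise and 3 with the largest fall in each comparison, the 5 genes most correlated with SPNS2, and ESRRB. The differences between the pools named in the closing section include all called genes of the wider list. Intervals of single libraries and the limits for counts of 0 (3 counts) reflect counting error alone, since PCR copies were not separated from molecules.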

Additional observations from a re-analysis of the deposited data

Results flagged for a closer look

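By edgeR's quasi-likelihood test, 11 of the 44 tested genes of the wider list, or 25%, had a DY131 response that differed between the cell pools, where 34.6% of all tested genes did. Each value is the log2 fold change with DY131 in DU145-Esrrb minus that in DU145-pc3.1. The lower ones were CERS1 at -1.22 (adjusted p = 0.0228, edgeR), CERS4 at -1.21 (adjusted p = 0.000861, edgeR), SPNS1 at -0.70, UGCG, which makes glucosylceramide, at -0.57 and KDSR, a reductase of early ceramide synthesis, at -0.31. The higher ones were ORMDL3 at 0.63, GNA12 at 0.41, DEGS1 at 0.32, GNA13 at 0.31, ALDH3A2, which oxidises the aldehyde left by S1P cleavage, at 0.27 and GNAI2 at 0.22. With the correction for exon junction share, CERS1 (-1.25), CERS4 (-0.84), UGCG (-0.69), KDSR (-0.45), ORMDL3 (0.45) and GNAI2 (0.48) passed the test, whereas SPNS1 (-0.49), GNA12 (0.15), DEGS1 (0.09), GNA13 (0.04) and ALDH3A2 (0.24) did not. CERS1 shares its windows with GDF1 and rests on 10 to 57 counts per library. CERS1 was not called with DESeq2 (adjusted p = 0.159), without DU145-pc3.1 replicate 1, without either untreated DU145-Esrrb library or without the first DU145-Esrrb + DY131 column, the last of which gave -0.96 (adjusted p = 0.121, edgeR). The call of GNAI2 was kept in 3 of 14 alternatives and in 1 of 8 that left out a library, that of KDSR in 7 and 2, of DEGS1 in 7 and 3 and of ALDH3A2 in 7 and 4. The interaction of CERS4, UGCG and ORMDL3 kept an adjusted p under 0.05 under all alternatives run.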

How the results depend on the processing

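Of the 8 calls made on pathway members, 4 kept an adjusted p under 0.05 under every alternative run: the rises of SPHK1 and S1PR3 with DY131 in both pools. Of 27 results of members that were not called, 22 were not called under any alternative. The SPNS2 differences also kept their direction, but SPNS2 was picked for its directions in these libraries, so this is a description. With edgeR, leaving out 1 library at a time gave 0 to 1 called members for Esrrb without ligand (1 without either DU145-pc3.1 + DY131 library, SGPP1), 2 to 4 for DY131 in DU145-pc3.1 (2 without DU145-pc3.1 replicate 1), 2 to 3 for DY131 in DU145-Esrrb and 1 to 2 for Esrrb under DY131 (2 without DU145-pc3.1 + DY131 replicate 1). For the wider list, it gave 0 to 4 (0 without any of the 4 untreated libraries, 4 without either DU145-pc3.1 + DY131 library), 10 to 21 (10 and 11 without the DU145-pc3.1 replicates), 18 to 30, 11 to 21 (11 and 13 without the DU145-Esrrb + DY131 columns) and, for the interaction, 6 to 15 (6 and 7 without the DU145-Esrrb + DY131 columns, 7 without either untreated DU145-Esrrb library). The calls over all tested genes also moved with the library left out. DESeq2 called 2 members for DY131 in DU145-pc3.1, and of the wider list 0 for Esrrb without ligand, 10 for DY131 in DU145-pc3.1, 8 for Esrrb under DY131 and 6 for the interaction. Of all 13856 tested genes it called 317, 3486, 5297 and 2897 in these 4 comparisons, in the same order. With the fold threshold, fewer genes pass by construction: 1, 1 and 0 members for DY131 in DU145-pc3.1, DY131 in DU145-Esrrb and Esrrb under DY131, and 0, 2, 6, 1 and 2 genes of the wider list in the 5 comparisons, Esrrb without ligand first and the interaction last. With only the 4 libraries compared, the wider list gave 2 calls for Esrrb without ligand, where 1224 of 13592 tested genes were called. With library size alone, SGPL1 fell with DY131 in DU145-pc3.1 (-0.14, adjusted p = 0.0414, edgeR).

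With the junction correction, 0 members passed for Esrrb under DY131, where 5429 of the 13856 tested genes were called. For DY131 in DU145-Esrrb with this correction, SGPP1 went to -0.0044, SPTLC1 to 0.39, SPTLC2 to -0.014, ASAH1 to 0.40, GNAI2 to 0.11 and GNAI3 to -0.0031. For Esrrb under DY131, SPTLC1 went to 0.45, SPTSSA to -0.23, GNAI3 to -0.27 and GNAQ to -0.014, and for the interaction SPTLC1 to 0.35 and ASAH1 to 0.50. All of these were of the opposite sign to the uncorrected values. Not every change of sign is named here: over the alternatives run, the interaction also reached -0.12 for SGPP1 and -0.28 for S1PR3. The cause was not tested, except that the correction by its construction removes the relation with the junction share.

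The numbers in the titles do not pair the libraries: the deviations of same-numbered libraries correlated at 0.092, 0.023 and -0.069 over the 3 pairs of groups that carry numbers. The names of the count columns carry other numbers than the titles, and by these no 2 groups share more than 1 number, so that no block could be fitted with them. In these 6 libraries, the replicate block gave 0 called members for Esrrb without ligand and 3 for DY131 in DU145-pc3.1, and 1 and 18 genes of the wider list, against 0, 3, 1 and 17 without it. S1PR2 was at -0.57 with the block (adjusted p = 0.0742, edgeR) and at -0.56 without it (adjusted p = 0.0634, edgeR). With 2 libraries per group and 32 to 81 counts on S1PR2 and 37 to 86 on S1PR5 per library, changes of these receptors smaller than about their 95% intervals were not detectable.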
